A study of Homo sapiens with 9 samples.

Results

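The genes of Polycomb repressive complex 2 (PRC2) were examined in ATAC-seq peak lists of MDA-MB-231, a human triple-negative breast cancer cell line. The members are the 10 genes EZH2, EZH1, SUZ12, EED, RBBP4, RBBP7, JARID2, AEBP2, PHF19 and MTF2, taken by name from the core and accessory subunits of the complex, of 20033 protein-coding genes in the annotation. ATAC-seq uses the Tn5 transposase to cut and tag open chromatin, so a peak marks a stretch where cuts exceed their local background. The 9 libraries comprise 2 of shCtrl, 2 of shEZH2 and 2 of shE2F1 cells, and 1 each of shSUZ12, DMSO and GSK126. In the knockdown groups and in shCtrl, a short hairpin RNA was delivered by lentivirus for 24 h, followed by 72 h of selection in puromycin at 2 μg/ml. All 4 hairpin groups are therefore puromycin-selected cells of 1 line. The DMSO library, whose treatment label reads WT, is the control for GSK126, an inhibitor of the methyltransferase activity of EZH2. For these 2 libraries the labels give no dose or time, and hairpins are not part of their description. The authors' general methods give 72 h for drug treatment with GSK126, without naming ATAC-seq. Nothing in the labels says that replicates came from separate cultures, so p-values measure the spread between these libraries, which may be technical. Peak lists hold no RNA or protein level, so the extent of each knockdown was not checked here.

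PRC2 places methyl groups on lysine 27 of histone H3, a mark of repressed chromatin. EZH2 and its paralog EZH1 are the alternative catalytic subunits, SUZ12 is the scaffold, EED binds the methylated tail and stimulates the enzyme, and RBBP4 and RBBP7 are closely related histone-binding subunits. JARID2 and AEBP2 form one set of accessory subunits, and the Polycomb-like proteins MTF2, PHF19 and PHF1 form another that recognises unmethylated CpG-rich DNA. EZH2 is a known target of E2F transcription factors in dividing cells, which is why the shE2F1 libraries bear on its promoter, and EZH2 is often abundant in breast tumours of high grade.

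Promoter sequences are given for the 2 knocked-down PRC2 genes, for EZH1 as the paralog of EZH2, and for EED and JARID2, whose estimates after shEZH2 were the highest of the 10. Each is the 200 bases before the transcription start site (TSS) of the canonical transcript, 5′ to 3′ on the gene's strand, from RefSeq on GRCh38.p14. Capitals in runs of 8 mark E2F letters (TTTCCCGC, TTTCGCGC, TTTGCCGC or TTTGGCGC, on either strand), and capitals in runs of 5 mark CCAAT or its reverse complement ATTGG, the letters that the factor NF-Y is known to bind.
EZH2, chr7:148884292-148884491, minus strand: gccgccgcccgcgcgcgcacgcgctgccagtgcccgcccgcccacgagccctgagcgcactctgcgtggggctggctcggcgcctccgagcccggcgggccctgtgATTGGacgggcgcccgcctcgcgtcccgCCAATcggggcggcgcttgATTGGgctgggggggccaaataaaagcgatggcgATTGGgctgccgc
EZH1, chr17:42745041-42745240, minus strand: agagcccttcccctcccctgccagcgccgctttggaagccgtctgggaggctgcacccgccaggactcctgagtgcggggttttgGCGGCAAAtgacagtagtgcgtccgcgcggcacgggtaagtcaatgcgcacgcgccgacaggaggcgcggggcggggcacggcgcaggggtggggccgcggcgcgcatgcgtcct
SUZ12, chr17:31936807-31937006, plus strand: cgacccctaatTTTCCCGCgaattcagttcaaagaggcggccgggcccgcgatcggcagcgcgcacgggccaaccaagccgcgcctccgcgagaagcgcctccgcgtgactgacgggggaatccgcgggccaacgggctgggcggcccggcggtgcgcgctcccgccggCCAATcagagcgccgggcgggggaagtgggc
EED, chr11:86244553-86244752, plus strand: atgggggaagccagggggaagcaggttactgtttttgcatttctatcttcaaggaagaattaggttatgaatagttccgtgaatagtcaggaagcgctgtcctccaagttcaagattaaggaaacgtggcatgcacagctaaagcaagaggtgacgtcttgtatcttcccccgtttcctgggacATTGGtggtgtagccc
JARID2, chr6:15245869-15246068, plus strand: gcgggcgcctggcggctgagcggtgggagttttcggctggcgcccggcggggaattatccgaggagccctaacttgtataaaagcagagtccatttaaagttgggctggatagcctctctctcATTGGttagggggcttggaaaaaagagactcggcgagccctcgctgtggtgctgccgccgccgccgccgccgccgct

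The EZH2 stretch holds 4 copies of CCAAT, at positions -94, -66, -47 and -13, and the E2F letters TTTGGCGC begin at position 2, just past its printed end, counting the TSS as 1. EZH1 has TTTGCCGC on the antisense strand at -115 and no CCAAT. SUZ12 has TTTCCCGC at -189 and CCAAT at -31, whereas EED and JARID2 have CCAAT alone, at -16 and -77. Over windows of 300 bases that reach from 250 before to 50 after the TSS, a window at the canonical TSS was found for 9 members, AEBP2 having none there. E2F letters were in 5 of these 9 (EZH2, EZH1, SUZ12, PHF19 and MTF2), beside 3.31% of all 35116 windows and 4.59% of the 14586 at the canonical TSS of a coding gene. Of the 9193 among these with a peak within 1 kb in all 9 libraries, 5.87% held them. CCAAT was in 7 of the 9, beside 34.6% of all windows and 38.0% of the 9193. No letters of the 2 kinds overlapped in these windows. A match in a sequence does not show that a factor was bound. The EZH2 window had a GC content of 74.7% and 46 CpG dinucleotides, while the EED window had 52.3% and 16.

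All 10 members had a peak within 1 kb of the TSS in all 9 libraries. Of all coding promoters, 60.0% had a peak in every library and 29.1% had one in none. The strength of a peak was its fold enrichment over local background, a ratio made by the peak caller, and its within-list percentile is the share of peaks of the same library at or below that ratio. Depth differed between libraries: they held 58626 to 85812 peaks, and the most frequent local background, recovered from the peak statistics, ran from 1.41 to 2.18 tags. The second shEZH2 library was lowest in both. The mesenchymal markers VIM, CD44, AXL and MSN had a promoter peak in all 9 libraries and the blood markers PTPRC, CD3E and CD79A in none. Of the luminal markers, GATA3 had none, ESR1, PGR and FOXA1 had a peak in most but not all libraries, and TFF1 had one in all 9. In shCtrl the mean percentile of TFF1 was 88.2, above MSN at 49.7, CD44 at 42.5, VIM at 29.8 and AXL at 21.0. The shCtrl means of ESR1, PGR and FOXA1 were 27.3, 12.3 and 9.56. In shEZH2 the AXL mean was 1.69, near the bottom of the lists.

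Ordered by mean percentile over the 9 libraries, the promoters ran from EZH1 at 95.2 ± 1.7 (SD, n = 9) through MTF2 at 92.9 ± 3.4, SUZ12 at 90.9 ± 3.8, RBBP4 at 88.1 ± 2.6, EZH2 at 86.5 ± 3.7 and RBBP7 at 83.5 ± 6.5. AEBP2 at 76.8 ± 7.4 and EED at 70.7 ± 7.5 came next, and PHF19 at 55.9 ± 9.4 and JARID2 at 55.5 ± 8.9 were last. Neighbours in this order had overlapping ranges in every case, so only distant places in it are apart by more than the spread. EZH1, for instance, never fell below 92.1, and JARID2 never exceeded 63.7. The median percentile of the members lay between 78.9 and 90.2 across libraries, and that of all promoters with a peak in every library lay between 73.4 and 82.1.

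**Figure D1:**
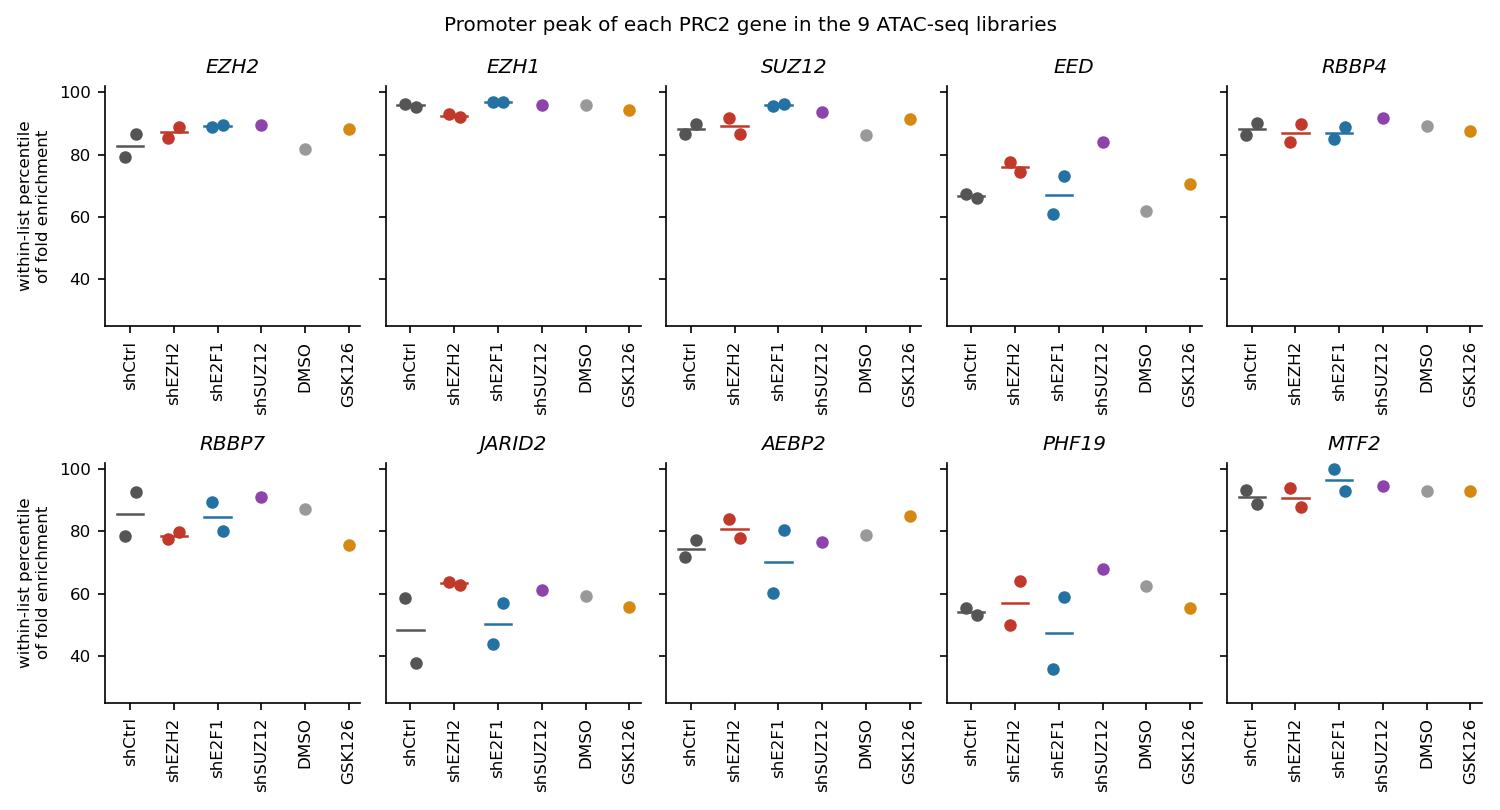
Within-list percentile of the fold enrichment of the strongest promoter peak (y axis, percentile) in each library (points), grouped by treatment (x axis), for the 10 PRC2 genes. Lines are the means of the groups with 2 libraries, and the other groups have 1. EZH1 stays at 92.1 or above, whereas JARID2 and PHF19 stay at 67.8 or below.

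The EZH2 promoter, the target of the catalytic-subunit knockdown, was open in every condition. Its TSS is at position 148884291 of chromosome 7, on the minus strand. Its percentile was 79.2 and 86.6 in shCtrl, 85.5 and 88.9 in shEZH2, 89.0 and 89.4 in shE2F1, 89.5 in shSUZ12, 81.9 in DMSO and 88.2 in GSK126. The shEZH2 libraries overlapped shCtrl, and both shE2F1 libraries lay above both shCtrl libraries. By limma on quantile-normalised log2 fold enrichment, the EZH2 promoter differed by 0.16 in log2 after shEZH2 (95% CI -0.12 to 0.44, adjusted p = 0.854). After shE2F1 the limma difference was 0.15 (95% CI -0.14 to 0.43, adjusted p = 0.913). As folds, these intervals ran from 0.917 to 1.36 and from 0.910 to 1.35.

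The summit of the EZH2 promoter peak stayed at -136 to -82 bp from the TSS. The peak was 1802 and 1746 bp wide in shCtrl, 1676 and 1002 bp in shEZH2, 1403 and 1635 bp in shE2F1, 1754 bp in shSUZ12, 1727 bp in DMSO and 1734 bp in GSK126. It was narrower in both libraries of each replicated knockdown than in both shCtrl libraries, and narrowest in the second shEZH2 library. Recovered summit tags were 188 and 208 in shCtrl, 162 and 100 in shEZH2, 109 and 176 in shE2F1, 273 in shSUZ12, 185 in DMSO and 193 in GSK126. The 2 narrowest EZH2 peaks were thus those with the fewest summit tags, and the part of depth in the width was not tested.

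EZH1, the paralog of EZH2, had the highest mean percentile of the members, in a range that overlapped that of MTF2. Its percentile was 96.2 and 95.4 in shCtrl, 92.9 and 92.1 in shEZH2, 96.8 and 96.7 in shE2F1, 95.9 in shSUZ12, 96.0 in DMSO and 94.4 in GSK126. Both shEZH2 libraries were below and both shE2F1 libraries above shCtrl, by means of 3.32 and 0.93 points. In limma the EZH1 difference was -0.10 after shEZH2 (95% CI -0.37 to 0.17, adjusted p = 0.917) and 0.02 after shE2F1 (95% CI -0.25 to 0.29, adjusted p = 0.993). The EZH1 summit lay from -42 to 22 bp from the TSS, which is at position 42745040 of chromosome 17, and the width varied little, from 913 to 1025 bp.

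SUZ12, the scaffold and the target of the single shSUZ12 library, stood at 86.7 and 90.0 in shCtrl, 91.7 and 86.5 in shEZH2, 95.5 and 96.2 in shE2F1, 93.6 in shSUZ12, 86.2 in DMSO and 91.5 in GSK126. The shE2F1 libraries were above both shCtrl libraries, by a mean of 7.49 points, and the shSUZ12 library was 5.27 points above the shCtrl mean. The limma difference of SUZ12 after shE2F1 was 0.23 (95% CI -0.04 to 0.51, adjusted p = 0.850). After shEZH2 it was 0.07 (95% CI -0.21 to 0.35, adjusted p = 0.947).

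E2F1, the knocked-down transcription factor, is not a PRC2 gene and serves here as the second target. Its promoter percentile was 55.2 and 83.0 in shCtrl, 77.1 and 72.6 in shEZH2, 79.2 and 87.7 in shE2F1, 88.2 in shSUZ12, 76.2 in DMSO and 80.9 in GSK126. The shCtrl libraries were far apart and enclosed both shEZH2 libraries and one shE2F1 library. In the first shCtrl library the E2F1 promoter was a single peak of 1625 bp, while the others split it into 2 or 3 peaks, the strongest 417 to 686 bp wide. The limma difference of E2F1 after shE2F1 was 0.30 (95% CI -0.09 to 0.69, adjusted p = 0.850).

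**Figure D2:**
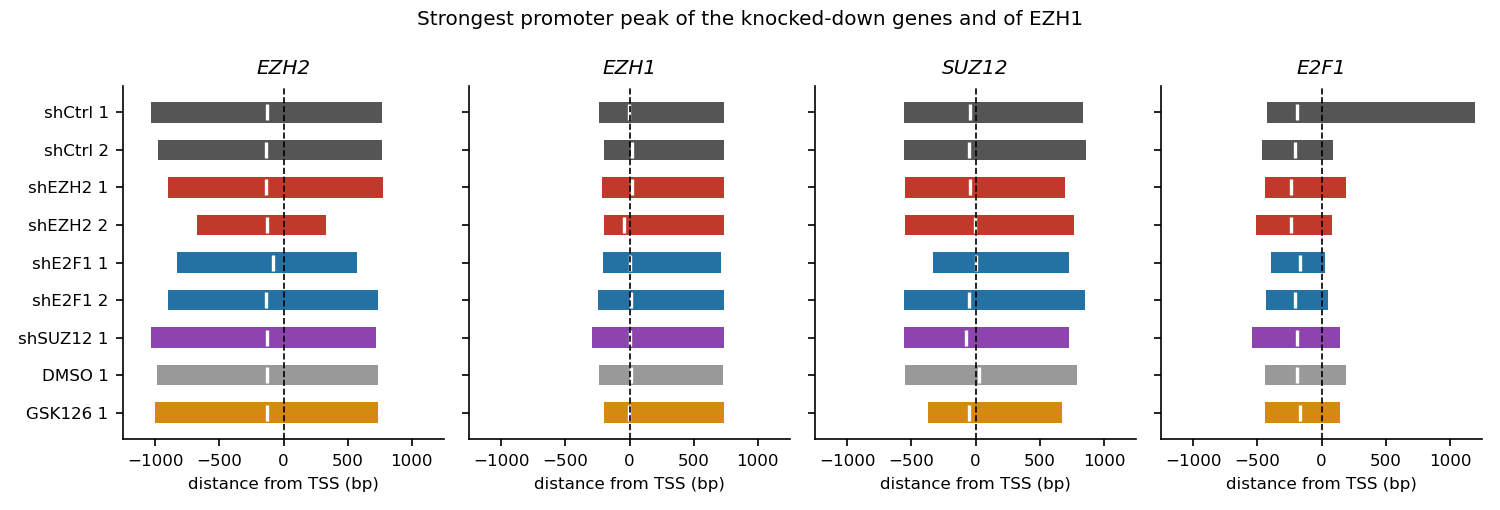
Extent of the strongest promoter peak (bars) and its summit (white marks) by distance from the TSS in bp (x axis) in each library (rows), for EZH2, EZH1, SUZ12 and E2F1. The dashed line is the TSS. The EZH2 peak is 1002 bp wide in shEZH2 2 against 1802 bp in shCtrl 1, and the E2F1 peak is 1625 bp wide in shCtrl 1 alone.

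EED and JARID2 had the largest limma estimates after shEZH2. EED stood at 67.5 and 66.2 in shCtrl, 77.6 and 74.5 in shEZH2, 60.9 and 73.1 in shE2F1, 84.0 in shSUZ12, 62.1 in DMSO and 70.6 in GSK126. Both shEZH2 libraries were above shCtrl, and the shSUZ12 library was the highest of all. The limma difference of EED was 0.28 after shEZH2 (95% CI 0.00 to 0.55, unadjusted p = 0.0482, adjusted p = 0.738) and 0.02 after shE2F1. Without any 1 of the shCtrl or shEZH2 libraries, its unadjusted p after shEZH2 was 0.0944 to 0.193. Its summit lay 380 to 395 bp after the TSS in 8 libraries and 38 bp after it in the second shCtrl library. An antisense long noncoding RNA starts 220 bp after the EED TSS, so the same peak covers both starts.

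JARID2, an accessory subunit that helps to bring the complex to chromatin, stood at 58.7 and 37.7 in shCtrl, 63.7 and 62.9 in shEZH2, 43.9 and 56.9 in shE2F1, 61.0 in shSUZ12, 59.1 in DMSO and 55.5 in GSK126. The second shCtrl library was the lowest of the 9. The JARID2 summit lay at -696 to -635 bp from the TSS in 8 libraries and at -167 bp in the first shE2F1 library. The limma difference of JARID2 after shEZH2 was 0.39 (95% CI 0.05 to 0.73, unadjusted p = 0.0298, adjusted p = 0.726). Without the second shCtrl library the JARID2 difference was 0.18, and without the first it was 0.60. After shE2F1 the JARID2 difference was 0.08, and without the second shCtrl library it was -0.13.

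Of the histone-binding pair, RBBP4 kept to 84.0 to 91.8 in all libraries, and RBBP7 ranged from 75.5 to 92.7. RBBP7 stood at 78.6 and 92.7 in shCtrl, 77.4 and 79.7 in shEZH2, 89.2 and 80.1 in shE2F1, 90.9 in shSUZ12, 87.2 in DMSO and 75.5 in GSK126. The shCtrl libraries of RBBP7 were far apart and overlapped both knockdowns. Its limma difference was -0.13 after shEZH2 (95% CI -0.49 to 0.23) and that of RBBP4 was 0.01 (95% CI -0.28 to 0.29). RBBP4 shares its promoter with ZBTB8OS, which starts upstream on the other strand, within 1 kb.

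AEBP2 stood at 71.6 and 77.3 in shCtrl, 83.9 and 77.7 in shEZH2, 60.0 and 80.3 in shE2F1, 76.6 in shSUZ12, 78.8 in DMSO and 84.8 in GSK126. Its shEZH2 libraries lay above shCtrl, the nearer pair by less than 1 point, and the limma difference was 0.22 (95% CI -0.09 to 0.53, adjusted p = 0.798). Among the Polycomb-like genes, MTF2 ranged from 87.8 in a shEZH2 library to 99.8 in a shE2F1 library, and PHF19 from 36.0 in a shE2F1 library to 67.8 in shSUZ12. The limma difference of MTF2 was 0.04 after shEZH2 (95% CI -0.36 to 0.44) and 0.28 after shE2F1 (95% CI -0.11 to 0.68, adjusted p = 0.850). PHF19 had its summit 523 to 784 bp after the TSS, and the peak covered the TSS itself in 6 of 9 libraries. Their paralog PHF1 gave 0.13 after shEZH2 (95% CI -0.16 to 0.41) and 0.04 after shE2F1 (95% CI -0.24 to 0.33).

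**Figure D3:**
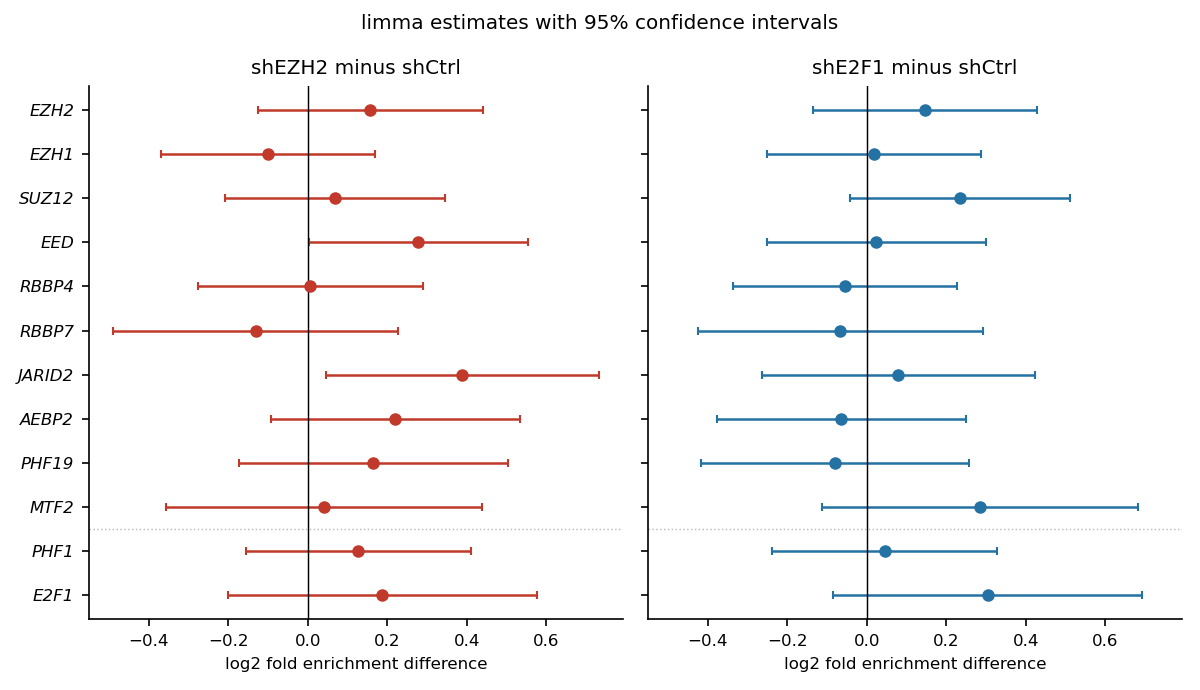
Difference in quantile-normalised log2 fold enrichment at the promoter (x axis, points) with its 95% confidence interval (bars) for the 10 PRC2 genes and, under the dotted line, PHF1 and E2F1, for shEZH2 (left) and shE2F1 (right) minus shCtrl, n = 2 libraries a group. The intervals of EED and JARID2 after shEZH2 lie above 0 before adjustment, and the other 22 cover 0.

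Across the 12070 promoters tested, limma with Benjamini-Hochberg adjustment called 0% after shEZH2 and 0% after shE2F1, at an adjusted p under 0.05. Unadjusted p under 0.05 was reached by 6.71% of promoters (810) after shEZH2 and by 5.67% (684) after shE2F1. Among the 10 members, 2 reached it after shEZH2 (EED and JARID2, both higher) and 0 after shE2F1. The difference was above 0 for 8 members after shEZH2 and 6 after shE2F1, beside 6362 and 6120 of the 12070 promoters. Member medians were 0.11 and 0.02, beside 0.01 and 0.00 over all promoters. Both comparisons use the same shCtrl libraries. Planted log2 changes of 1 were recovered in 192 of 200 promoters for shEZH2 and 199 of 200 for shE2F1 in simulated data, and the median half-width of the 95% interval was 0.31. The simulated noise was drawn from the spread of the fit itself, and smaller changes were not planted. The recovery therefore says nothing about differences as small as those of the members, the largest being 0.39 (JARID2 after shEZH2).

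By the percentiles, 1 member (EZH1) was lower and 3 (EED, JARID2 and AEBP2) were higher in both shEZH2 than in both shCtrl libraries, beside 29.7% of all promoters lower and 10.6% higher. In shares of percentiles and widths, all promoters are those with a peak in every library compared. In the main setting these numbered 12234 for shEZH2 and 12516 for shE2F1. After shE2F1, 0 members were lower and 3 (EZH2, EZH1 and SUZ12) were higher, beside 17% lower and 19.2% higher. An exact permutation test of 2 against 2 libraries cannot go below p = 0.333. The choice of measure mattered. With percentiles of −log10 p in place of fold enrichment, EZH1, SUZ12, RBBP4, RBBP7 and PHF19 were lower and EED and JARID2 higher after shEZH2, beside 42.2% lower and 4.15% higher of all promoters. With lists cut to equal length, EZH2 and SUZ12 joined the 3 that were higher and EZH1 was again lower, beside 23.9% higher and 14.4% lower. After shE2F1, EZH2 and SUZ12 were higher under all 5 alternatives, which re-rank the same libraries and are not independent of each other. With −log10 p, EZH1 was no longer higher and PHF19 was lower, beside 12.4% higher and 22.8% lower of all promoters. For shE2F1 the share of all promoters is given for this alternative alone. Under the other alternatives, the repeated calls of EZH2 and SUZ12 therefore cannot be set against their background. Peak width was lower in both shEZH2 libraries for 7 members (EZH2, SUZ12, EED, RBBP4, RBBP7, AEBP2 and MTF2) and higher for 0, beside 47.3% narrower and 2.32% wider of all promoters. For shE2F1, 3 members (EZH2, JARID2 and MTF2) were narrower and 0 wider, beside 37.3% and 4.25%. The MTF2 peak measured 1130 and 1447 bp in shCtrl and 510 to 728 bp in the 4 knockdown libraries, 3 of which split the promoter into 2 peaks. It was 897 bp wide in shSUZ12, and at 684 bp in DMSO and 640 bp in GSK126 it was as narrow without a knockdown as with one. The part of depth in these widths was not tested.

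The shSUZ12, DMSO and GSK126 libraries have no replicate check. A distance of at least 10 percentile points from the control, and for shSUZ12 a place beyond both shCtrl libraries, was taken as a change. In shSUZ12, EED, JARID2 and PHF19 were higher, by 17.1, 12.8 and 13.5 points, and 0 members were lower. Of the 12868 promoters compared, 17.2% were higher and 5.19% lower. For JARID2 the distance of 12.8 points was smaller than that between its shCtrl libraries, at 58.7 and 37.7. In GSK126 against DMSO, RBBP7 fell by 11.7 points and 0 members were higher, beside 15.4% lower and 6.87% higher of the 12823 promoters compared. The distance of RBBP7, too, was smaller than that between its shCtrl libraries, at 78.6 and 92.7. EZH2, the enzyme that GSK126 inhibits, was 6.31 points higher in GSK126 than in DMSO, a distance smaller than that between its 2 shCtrl libraries, at 79.2 and 86.6.

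Around the members, in the gene body and within 50 kb on either side, the peaks of the 9 lists merged into 154 regions, of which 11 were at promoters, 61 in gene bodies and 82 in flanks. A peak was present in all 9 libraries in 39.6% of them and in 1 library in 17.5%, beside 34.2% and 24.3% of all 118719 regions. JARID2, the longest but one of the genes at 275974 bp, had 41 regions, 37 of them in its body, and 14 were shared by all libraries. EZH2 had 12 regions, of which 3 were shared by all libraries and 7 were in a single library. EZH1 had 19, with 6 at the TSS of another coding gene.

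**Figure D4:**
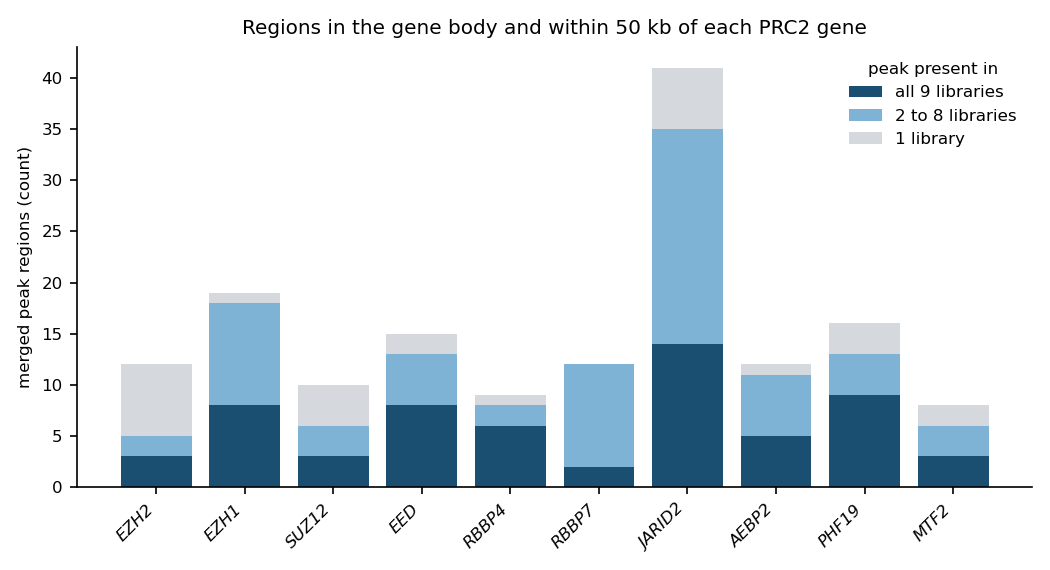
Number of merged peak regions (y axis, count) in the gene body and within 50 kb of each PRC2 gene (x axis), split by the number of libraries with a peak. JARID2 has 41 regions, 14 of them in all 9 libraries, and EZH2 has 12, of which 7 are in 1 library.

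A region was lost where both shCtrl and neither knockdown library had a peak, and gained in the opposite case. After shEZH2, 10 of the 154 regions were lost and 3 gained, beside 5.87% lost and 0.727% gained of all regions. After shE2F1, 6 were lost and 0 gained, beside 3.36% and 2.56%. None of these was a promoter, and EZH2, EZH1, RBBP4 and PHF19 had no lost or gained region in either knockdown. JARID2 had 4 lost and 3 gained regions after shEZH2 and 2 lost after shE2F1. These counts rest on the presence of a peak in both libraries of a group, and leaving out 1 library relaxes that. After shEZH2, 21 and 17 regions were lost without shCtrl 1 and shCtrl 2, and 23 and 13 without shEZH2 1 and shEZH2 2, and the gained regions then numbered 4, 6, 3 and 7. Of all regions, 14.1%, 11.9%, 13.3% and 7.62% were then lost and 1.42%, 1.70%, 2.08% and 5.50% gained. After shE2F1, 15 and 11 were lost without shCtrl 1 and shCtrl 2, and 9 and 23 without shE2F1 1 and shE2F1 2, and 0, 5, 10 and 5 were gained. Of all regions, 9.70%, 8.30%, 4.55% and 10.3% were then lost and 3.93%, 4.54%, 11.2% and 5.43% gained.

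The 5 strongest of the 17 changed regions were as follows. A JARID2 intron at chr6:15341361-15341775 had percentiles of 85.0 and 78.2 in shCtrl and no peak in either shEZH2 library, while its percentile was 31.7 and 43.2 in shE2F1, 33.4 in shSUZ12, 39.6 in DMSO and 54.7 in GSK126. At chr12:19712083-19712391, inside the AEBP2 gene record, shCtrl stood at 59.4 and 63.4 and neither shE2F1 library had a peak. No peak was listed there in the second shEZH2, shSUZ12 or GSK126 library either, while the first shEZH2 library stood at 68.2 and DMSO at 15.9. A second AEBP2 region lost after shE2F1, chr12:19572962-19573449, had 73.6 and 43.5 in shCtrl, 18.9 in the first shEZH2 library and no peak in the second, 30.2 in shSUZ12, 36.6 in DMSO and 15.3 in GSK126. Upstream of SUZ12, chr17:31919853-31920168 had 45.4 and 48.4 in shCtrl and no peak in shEZH2, and also none in DMSO or the first shE2F1 library. It stood at 58.6 in the second shE2F1 library, 37.9 in shSUZ12 and 22.8 in GSK126. An RBBP7 intron at chrX:16855837-16856442 had 35.1 and 49.3 in shCtrl and no peak in shEZH2 or the first shE2F1 library, with 60.8 in the second, 31.4 in shSUZ12, 39.6 in DMSO and 29.8 in GSK126. Chosen after their values were seen, 2 regions were lost in both knockdowns, the JARID2 intron chr6:15403902-15404282 and the MTF2 intron chr1:93080468-93080758, with shCtrl percentiles of 37.8 and 8.76, and of 38.4 and 14.1. The JARID2 region was listed in the shCtrl libraries alone, and so was absent from DMSO too. The MTF2 region stood at 11.4 in shSUZ12, 23.5 in DMSO and 8.59 in GSK126. The 2 knockdowns share the shCtrl libraries in this count too.

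**Figure D5:**
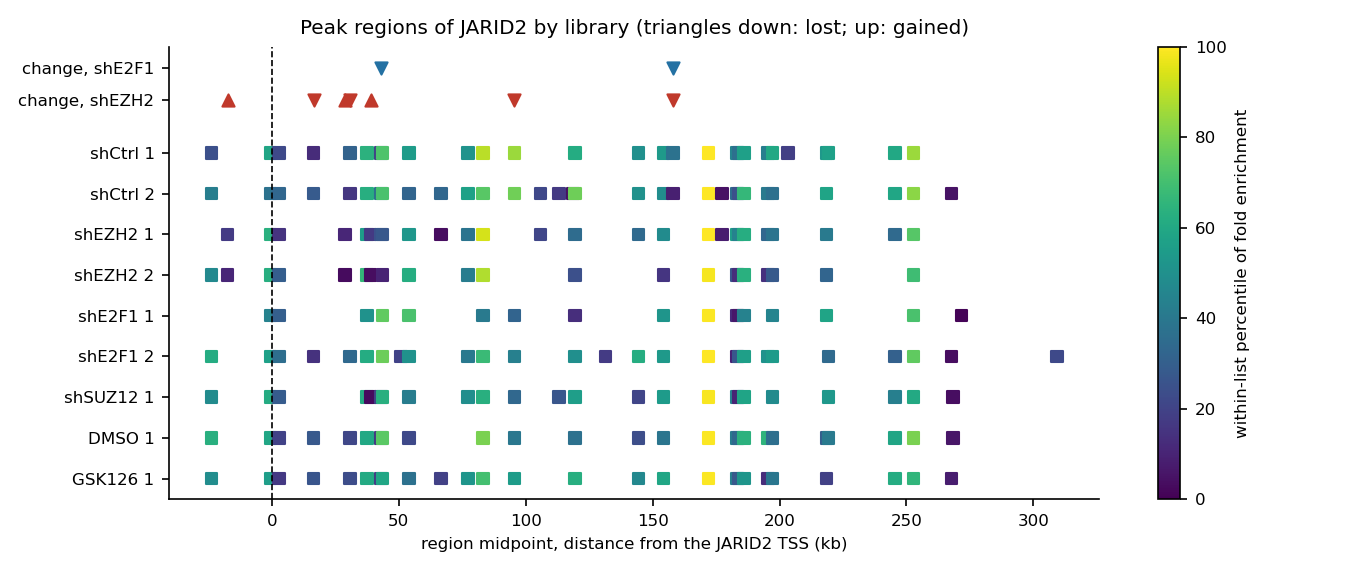
Peak regions of JARID2 by distance of their midpoint from the TSS in kb (x axis) in each library (rows), coloured by within-list percentile of fold enrichment. Triangles in the upper rows mark regions lost (down) or gained (up) after each knockdown, 4 and 3 after shEZH2 and 2 and 0 after shE2F1.

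Among other polycomb genes, 0 promoters passed the limma threshold in either knockdown. Of the other PRC2 accessory genes, 4 of 5 were tested, and EZHIP had no promoter peak in any library. Of 21 genes of Polycomb repressive complex 1, 17 were tested, with medians of -0.05 in log2 after shEZH2 and 0.08 after shE2F1. Their percentiles were lower in both shEZH2 libraries for 10 of 18 and higher for 0, beside the 29.7% and 10.6% of all promoters. After shE2F1 they were lower for 3 and higher for 7 of 19, beside 17% and 19.2%. In limma, 0 of the 17 reached an unadjusted p under 0.05 after shEZH2 and 2 did after shE2F1, beside 6.71% and 5.67% of all promoters. With lists cut to equal length, more promoters overall were higher than lower after shEZH2. The percentile counts of these genes were not made under that setting. The 5 genes of the H3K27 demethylases and of the H2A deubiquitinase complex were all tested, with medians of -0.07 and 0.04. The promoters whose percentiles over the 9 libraries were most like those of EZH2, among 12026, were FNTA, TIMM50 and NAIF1, with mean absolute differences of 1.68, 1.94 and 1.95 points.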

How the data were processed

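ATAC-seq was performed in 9 MDA-MB-231 libraries, and 1 NarrowPeak list per library was used. The authors aligned the reads with Bowtie2 and shifted them for the Tn5 cutting position before peak calling. The peak caller for ATAC-seq is not given in the sources used here. The lists deposited by the authors hold the fold enrichment of each peak, a ratio to its local background, the −log10 of its p and q, a score that is the whole part of 10 times −log10 q, and the summit offset. Replicates were not pooled, and the build is GRCh38.

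A promoter reached 1 kb up- and downstream of the start of each coding gene's Ensembl canonical transcript (GENCODE 44) and was represented by its strongest peak. limma 3.58.1 was run, two-sided, on quantile-normalised log2 fold enrichment of the 12070 coding promoters with a peak in all 6 libraries of shCtrl, shEZH2 and shE2F1, with Benjamini-Hochberg adjustment over all. No pseudocount was added. Summit tags and background were recovered from the fold enrichment and the −log10 p, which matched whole tags within 0.01 for 100% of 2000 peaks sampled per library. Depth limits how weak a peak can be and still be listed. Regions merged peaks that overlapped by 1 bp or more. On simulated data with none changed, limma called 0 promoters. With 200 of 12070 promoters changed, it made 192 correct and 20 false calls for shEZH2, and 199 correct and 13 false calls for shE2F1. Each setting was a single draw with noise from the fit itself, so it does not give the error rate in these data. Promoter sequences come from RefSeq.

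The members and lists were chosen with earlier results of these data known. Named were the 10 members, E2F1, PHF1, other polycomb genes past the limma threshold, the 3 promoters most like that of EZH2, and, where more than 10 regions were lost or gained, the 5 with the highest percentile in the lower of the 2 libraries that have them. Alternatives covered normalisation, measure, window, peak choice, peak threshold, equal list length, absent peaks, a pseudocount, a replicate block, all 9 libraries in 1 fit and leaving out libraries. Summit tags as the measure were added after seeing the data. Read counts per region were not used here, and 1 marker gene and 1 promoter called under an alternative are not reported here. Software was R 4.3.3, scipy 1.17.1, pandas 2.3.3, numpy 2.4.6 and matplotlib 3.10.9 under Python 3.11.15.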

Additional observations from a re-analysis of the deposited data

How the results depend on the processing

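Over 340 limma values of the 10 members under the alternatives, 317 kept their direction and 23 did not, 0 passed the threshold, and the adjusted p ranged from 0.477 to 0.9999. With summit tags in place of fold enrichment, the shEZH2 difference was -0.0017 for EZH2, 0.069 for EZH1, -0.21 for RBBP4, -0.062 for PHF19 and -0.036 for MTF2, and the shE2F1 difference of AEBP2 was 0.035. With −log10 p, RBBP4 gave -0.22 and MTF2 -0.028 after shEZH2. With the peak nearest to the TSS, PHF19 gave 0.65 after shE2F1 and 0.89 after shEZH2 (adjusted p = 0.796). The cause was not tested. Leaving out 1 library at a time, the shEZH2 difference ran from -0.072 to 0.086 for RBBP4, -0.31 to 0.051 for RBBP7 and -0.048 to 0.13 for MTF2. The shE2F1 difference ran from -0.012 to 0.048 for EZH1, -0.037 to 0.085 for EED, -0.25 to 0.11 for RBBP7, -0.13 to 0.29 for JARID2, -0.21 to 0.086 for AEBP2 and -0.20 to 0.042 for PHF19. A left-out library leaves its group with 1, which is assumed to vary like the other groups.

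Over all promoters, calls came from 3 alternatives, each named after its values were seen and none a member. The peak nearest to the TSS gave 5 higher after shEZH2 (CTDSPL, FAM72A, FSCN1, TNPO2 and ZNF362), and 2 higher (FAM72A and TNPO2) and 2 lower (EPB41L4A and PBLD) after shE2F1. FAM72A has near-identical copies, so its reads are uncertain. Absent peaks set to the lowest fold enrichment gave 1 lower (C1orf100) after shEZH2, and 2 lower (C1orf100 and KLHL13) after shE2F1. A window of 500 bp gave 1 lower (PBLD) after shE2F1.

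The share of promoters with the percentile lower in shEZH2 was 14.4% and the share higher 23.9% when lists were cut to equal length. With −log10 p, 4.15% were higher in shEZH2 and 12.4% in shE2F1. Of 210 member percentile differences, 177 stayed within 1 SD and 33 moved. A reversal was counted only for members already called in the main setting, and 0 of these reversed. Other differences could change sign without being counted. With shCtrl in place of DMSO, the GSK126 difference of JARID2, -3.57 against DMSO, turned positive, at 55.5 against 48.2. With lists of equal length, 5 of 109 regions near members were lost and 4 gained after shEZH2, beside 3.33% and 2.30% of all regions. After shE2F1, 7 of the 109 were lost and 2 gained, beside 3.23% and 3.15%. A −log10 q of at least 5 gave 11 of 139 lost and 2 gained after shEZH2, beside 6.23% and 0.735%. After shE2F1 it gave 7 lost and 1 gained, beside 3.56% and 2.49%. Leaving out a library gave, of 154, 13 to 23 lost and 3 to 7 gained for shEZH2, beside 7.62% to 14.1% and 1.42% to 5.50% of all regions, and 9 to 23 lost and 0 to 10 gained for shE2F1, beside 4.55% to 10.3% and 3.93% to 11.2%.

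Replicate numbers were not taken to pair the libraries, since the differences between replicates 1 and 2 correlated at 0.05 for shCtrl and shEZH2, 0.05 for shCtrl and shE2F1 and 0.0023 for shEZH2 and shE2F1. With the replicate block limma called 0 promoters in both comparisons, as without it.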

Other observations

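Near EZH2, SUZ12, EED, RBBP4, JARID2 and PHF19, the strongest region in all 9 libraries was outside the promoter of the member. These regions were chosen after their values were seen. In an intron of JARID2, 171930 bp after its TSS, chr6:15417619-15418379 had a percentile between 98.7 and 99.9 in every library. An intron of CUL1, which encodes a scaffold of ubiquitin ligases and lies beyond the end of EZH2, held chr7:148772285-148773097 with percentiles from 99.7 to 99.99. Upstream of EED, chr11:86193140-86193902 ranged from 98.3 to 99.8. The exon of UTP6 upstream of SUZ12, at chr17:31901033-31902085, ranged from 99.3 to 99.95. Beside PSMD5, downstream of PHF19, chr9:120842455-120843749 ranged from 95.8 to 99.6. Upstream of RBBP4, chr1:32611930-32613015 ranged from 92.9 to 99.7. In each library, these regions were above the promoter of the PRC2 gene beside them. Upstream of AEBP2, chr12:19382020-19382572 also had a higher mean percentile than the AEBP2 promoter, at 83.2 against 76.8. In DMSO, however, it was lower, at 67.0 against 78.8. In contrast, the strongest region in all 9 libraries near RBBP7 other than its promoter, chrX:16882670-16883539, ranged from 52.1 to 85.4.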
